A study of Rattus norvegicus with 16 samples.

Results

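The 9 genes described here are Nd1, Nd2, Nd4, Nd5, Cytb, Co1, Co2, Co3 and Atp6, which the rat mitochondrial genome encodes. Other genes of that genome lie outside this set, so the sums below, also those by complex, are not its whole output. They were chosen by their Ensembl identifiers, not by a rule on any measured value, though earlier results of these data were known. All 9 were present among the 23918 identifiers of each count file. Aortas and kidneys of wild type male Sprague-Dawley rats were taken at an age of 1 year, and their polyA-selected RNA was sequenced. The animals had breathed room air (RA; labelled normoxia) throughout, or 85% oxygen over postnatal days 1 to 14 and RA thereafter (hyperoxia). Each of the 4 groups held 4 libraries, 16 in all. The aorta samples were arch and thoracic segments, and many pups died under hyperoxia, so that group consists of survivors.

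Mitochondria carry their own small circular genome, which is transcribed from both strands into long precursors that are cut into single mRNAs and given short polyA tails. Its protein genes encode core subunits of the respiratory chain, the membrane complexes that pass electrons from nutrients to oxygen and use the resulting proton gradient to make ATP. Proximal and distal tubules of the kidney are rich in mitochondria because they reabsorb salt and solutes actively, whereas the smooth muscle of the aorta carries fewer. Nd1, Nd2, Nd4 and Nd5 are membrane subunits of complex I (NADH dehydrogenase), which take part in proton pumping. Cytb is the cytochrome b of complex III, Co1, Co2 and Co3 form the catalytic core of complex IV (cytochrome c oxidase), and Atp6 belongs to the proton channel of complex V (ATP synthase).

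The values below are estimated counts summed by gene, given as a share of all counts in the library or as counts per 1000000 (CPM). Counts were not divided by gene length, so they compare libraries and not genes with each other. The libraries held between 25.03 and 83.9 counts in units of 1000000. The hyperoxia aortas (68.6 to 83.9) were deeper than the RA aortas (33.6 to 47.0), so depth and exposure cannot be told apart in the aorta, whereas RA kidneys (25.5 to 25.9) and hyperoxia kidneys (25.03 to 26.5) were alike. The lowest count of any of the 9 genes in any library was 77880, so counting error was small beside the spread between animals. Identity of the tissues could not be checked against marker genes, because the identifiers were not paired with gene names. In these bulk samples, a change in the number of cells of a type and a change in RNA per cell cannot be told apart.

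The 9 genes together held between 7.81% and 39.0% of the counts of an aorta library and between 23.9% and 33.0% of a kidney library. In the RA aortas the shares were 27.7%, 39.0%, 12.8% and 7.81% for replicates 1 to 4. In the hyperoxia aortas they were 20.4%, 8.14%, 22.03% and 22.7%. The RA aortas spanned a 4.99-fold range, and every hyperoxia aorta lay inside it. The RA kidneys were at 30.0%, 30.8%, 32.3% and 23.9%, and the hyperoxia kidneys at 31.8%, 24.7%, 28.4% and 33.0%. Kidney libraries of both exposures therefore covered the same narrow range, of 1.35-fold in RA and 1.33-fold in hyperoxia.

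**Figure D1:**
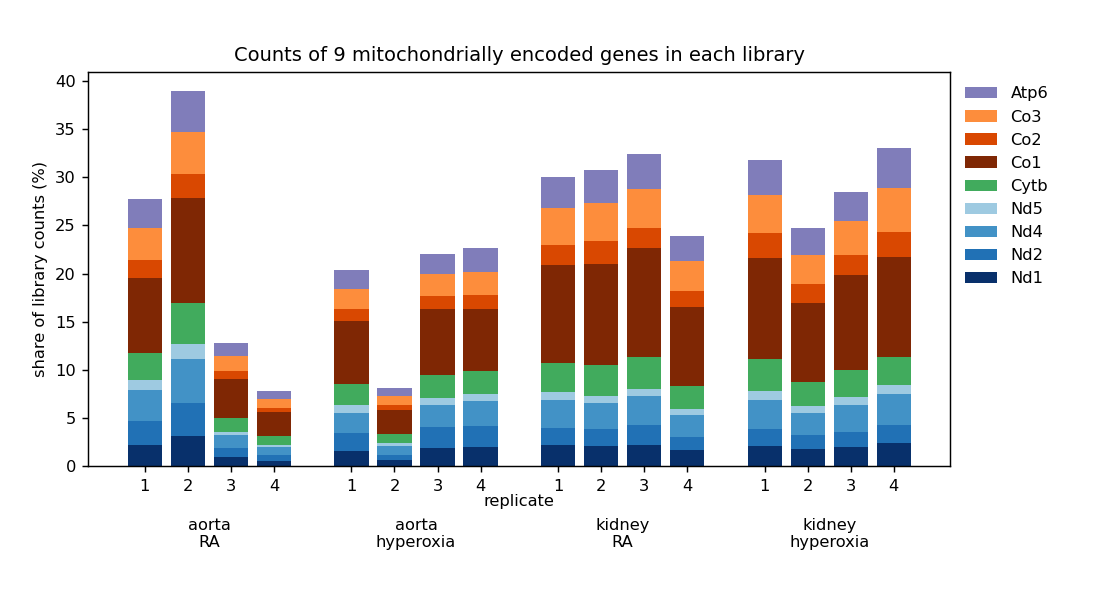
Share of library counts (%) held by each of the 9 mitochondrially encoded genes, stacked, for the 4 replicates of each group. The RA aortas run from 7.81% to 39.0%, while the 8 kidneys stay between 23.9% and 33.0%.

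The mean summed share was 21.8 ± 14.2% in RA aortas and 18.3 ± 6.84% in hyperoxia aortas (SD, n = 4 each), a difference of −3.53 percentage points that was smaller than the spread within either group. It turned to 2.18 without RA replicate 2, and was −0.142 without hyperoxia replicate 2, −1.56 without RA replicate 1, −6.54 without RA replicate 3 and −8.21 without RA replicate 4. The median share was 0.931 points higher in hyperoxia. In the kidney, the mean was 29.2 ± 3.70% in RA and 29.5 ± 3.71% in hyperoxia (SD, n = 4 each), a difference of 0.249 points that ran from −1.54 to 1.83 when a library was left out. The RA and hyperoxia libraries overlapped in both tissues. A summed value over chosen genes was not tested.

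Counts outside the 9 genes ran from 23.2 to 34.0 in units of 1000000 in RA aortas, from 54.6 to 77.1 in hyperoxia aortas and from 16.8 to 19.9 in the kidneys. In each kidney library the 9 genes were all among the 10 rows with the most counts. In the aorta, between 3 and 9 of them were.

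Of the complex I genes, Nd1 (ENSRNOG00000030644) held 2.26%, 3.14%, 1.01% and 0.577% of the counts in RA aortas and 1.62%, 0.636%, 1.89% and 2.03% in hyperoxia aortas. In the kidney it held 2.19%, 2.13%, 2.20% and 1.73% in RA and 2.13%, 1.77%, 1.98% and 2.43% in hyperoxia. The hyperoxia aortas lay within the range of the RA aortas, and the kidney groups overlapped. Nd2 (ENSRNOG00000031033) followed the same libraries, at 2.44%, 3.49%, 0.873% and 0.571% in RA aortas and 1.80%, 0.564%, 2.21% and 2.21% in hyperoxia aortas. Its kidney values were 1.81%, 1.74%, 2.08% and 1.30% in RA and 1.77%, 1.47%, 1.62% and 1.88% in hyperoxia. For Nd2, the mean levels of the 4 groups lay close together, from 16849 ± 1745 CPM in hyperoxia kidneys to 18432 ± 13698 CPM in RA aortas (SD, n = 4 each).

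Nd4 (ENSRNOG00000029707) was at 3.28%, 4.55%, 1.33% and 0.849% in RA aortas and at 2.09%, 0.885%, 2.32% and 2.54% in hyperoxia aortas. Its kidney range was 2.27% to 2.98% in RA and 2.34% to 3.18% in hyperoxia. Nd4 shares an overlap with a neighbouring mitochondrial gene, and reads from the overlap could be counted for either. Nd5 (ENSRNOG00000029971) was at 1.04%, 1.49%, 0.386% and 0.232% in RA aortas and at 0.843%, 0.302%, 0.712% and 0.726% in hyperoxia aortas. In the kidney, Nd5 ranged from 0.689% to 0.851% in RA and from 0.673% to 0.930% in hyperoxia. For both genes the range of the 8 aortas enclosed that of the 8 kidneys.

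Cytb (ENSRNOG00000031766), the complex III subunit, held 2.72%, 4.30%, 1.46% and 0.885% in RA aortas and 2.19%, 1.00%, 2.30% and 2.36% in hyperoxia aortas. The RA kidneys were at 2.96%, 3.21%, 3.23% and 2.34% and the hyperoxia kidneys at 3.35%, 2.51%, 2.74% and 2.94%. All 4 hyperoxia aortas were below all 4 hyperoxia kidneys, whereas the RA groups of the tissues overlapped.

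Co1 (ENSRNOG00000034234), the catalytic subunit of complex IV, was at 7.82%, 10.9%, 4.01% and 2.54% in RA aortas and at 6.58%, 2.44%, 6.90% and 6.43% in hyperoxia aortas. In the kidney it was at 10.2%, 10.5%, 11.3% and 8.18% in RA and at 10.5%, 8.15%, 9.85% and 10.4% in hyperoxia. RA aorta replicate 2 thus reached the level of the kidneys, and the other aortas lay below them. Its group means were 63137 ± 37712 CPM in RA aortas, 55889 ± 21102 CPM in hyperoxia aortas, 100453 ± 13282 CPM in RA kidneys and 97282 ± 10925 CPM in hyperoxia kidneys (SD, n = 4 each).

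Co2 (ENSRNOG00000030371) held 1.89%, 2.45%, 0.855% and 0.442% in RA aortas and 1.20%, 0.525%, 1.34% and 1.49% in hyperoxia aortas. Its kidney values were 2.05%, 2.38%, 2.12% and 1.68% in RA and 2.54%, 2.01%, 2.10% and 2.60% in hyperoxia. Co2 carries the copper centre that takes electrons from cytochrome c, and its mean in hyperoxia kidneys was 2.31 ± 0.301% beside 2.06 ± 0.289% in RA kidneys (SD, n = 4 each). Co3 (ENSRNOG00000030700) was at 3.26%, 4.36%, 1.51% and 0.843% in RA aortas and at 2.11%, 0.926%, 2.26% and 2.34% in hyperoxia aortas. The RA kidneys held 3.81%, 3.98%, 4.02% and 3.14% and the hyperoxia kidneys 4.004%, 3.002%, 3.52% and 4.56%. For both genes all hyperoxia aortas were below all hyperoxia kidneys, and the exposure groups overlapped within each tissue.

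Atp6 (ENSRNOG00000031979), the proton channel subunit of complex V, was at 3.04%, 4.31%, 1.38% and 0.866% in RA aortas and at 1.96%, 0.857%, 2.10% and 2.52% in hyperoxia aortas. In the kidney it was at 3.18%, 3.43%, 3.60% and 2.55% in RA and at 3.59%, 2.80%, 3.01% and 4.11% in hyperoxia. It also overlaps a neighbouring mitochondrial gene. The pattern over libraries was that of the other genes, with RA replicate 2 highest and RA replicate 4 lowest among the RA aortas for all 9 genes. Among the hyperoxia aortas replicate 2 was the lowest for all 9 genes. In the kidney, replicate 4 was the lowest RA library and replicate 2 the lowest hyperoxia library for all 9, and these replicate numbers do not link animals between tissues.

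**Figure D2:**
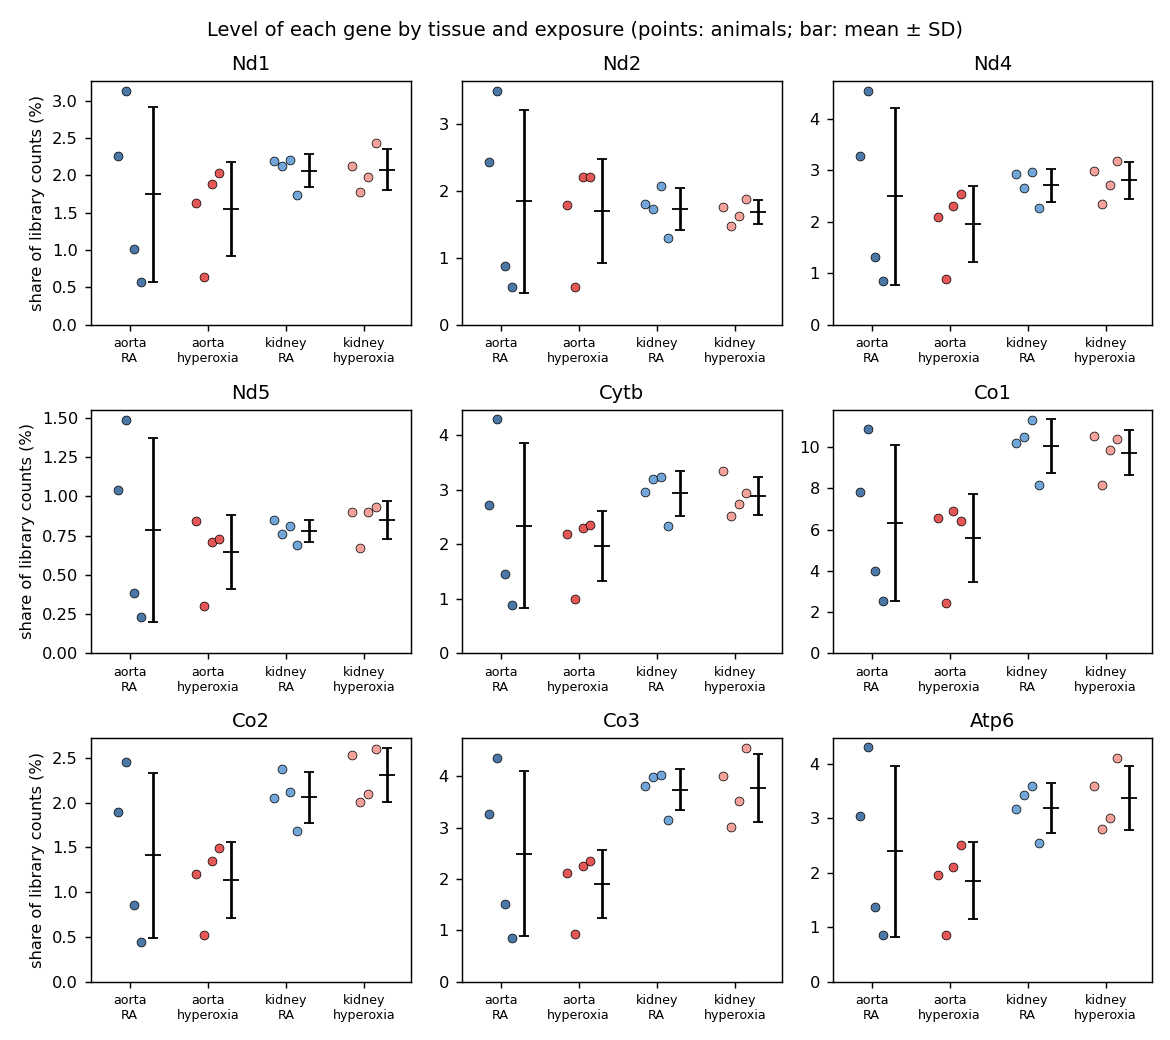
Share of library counts (%) for each gene, with a point for each animal and the mean ± SD of the 4 animals beside it. RA aortas are the most widely spread group in each panel, and the RA and hyperoxia points overlap in both tissues.

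The question of the study was whether neonatal hyperoxia leaves a lasting change in these organs. Every row was tested by the quasi-likelihood method of edgeR. A gene was called where its false discovery rate (FDR) was below 0.1 and its level differed over 1.25-fold. The study's methods also ask for an unadjusted p-value below 0.05, which this rule leaves out and which is given where it would end a call. In the aorta edgeR called 0 of the 9 genes, beside 0.0199% of 15086 rows, and DESeq2 called 0, beside 0.765% of 19481 rows. Of the 9, 0 passed 0.05 before adjustment in edgeR. In CPM, 0 of the 9 were without overlap between the exposure groups, beside 3.59% of rows. The 9 log2 fold changes were negative, with a median of −0.42 against −0.02 over all rows tested, and of −0.43 when the libraries were thinned to the smallest total.

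The aorta estimates ran from −0.25 for Nd2 (standard error 0.70, 95% interval −1.83 to 1.32) to −0.51 for Co3 (standard error 0.61, 95% interval −1.87 to 0.85). The lowest FDR of edgeR's test among the 9 genes was 0.803, for Co3. Co1 was at −0.29 with a 95% interval of −1.64 to 1.07, and Cytb at −0.38 with an interval of −1.69 to 0.93. The lower limits of all 9 intervals were below −1, so a fall of the level by 2-fold was not excluded with 4 animals per group. For Nd1, Nd2, Nd5 and Co1 the upper limits were 1.13, 1.32, 1.05 and 1.07, so a 2-fold rise was not excluded either. Without RA replicate 2, the log2 fold changes of all 9 genes were positive, with a median of 0.19. Without hyperoxia replicate 2 the median was −0.16, and without RA replicates 1, 3 or 4 it was −0.25, −0.66 and −0.75.

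In the kidney edgeR called 0 of the 9 genes, beside 0% of 15069 rows, and DESeq2 called 0, beside 0.121% of 19794 rows. Before adjustment, 0 of the 9 genes and 747 of all rows passed 0.05 in edgeR. In CPM, 0 of the 9 were without overlap, beside 1.81% of rows. The log2 fold changes lay between 0.00 for Co1 (standard error 0.32, 95% interval −0.72 to 0.72) and 0.21 for Co2 (standard error 0.24, 95% interval −0.33 to 0.75), with a median of 0.06 against 0.01 over all rows. FDR was at least 0.960 for all 9 genes with edgeR. With library totals in place of TMM scaling, Nd2, Cytb and Co1 turned slightly negative.

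The study left out 1 hyperoxia kidney that neither the labels nor its text names. Leaving out hyperoxia replicate 2, the lowest of that group for all 9 genes, raised the median log2 fold change to 0.22, with the 9 genes between 0.13 and 0.34. The smallest unadjusted p-value of edgeR's test was then 0.0647 and the smallest FDR 0.547. Without RA replicate 4, the lowest RA kidney for all 9 genes, the median was −0.02.

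**Figure D3:**
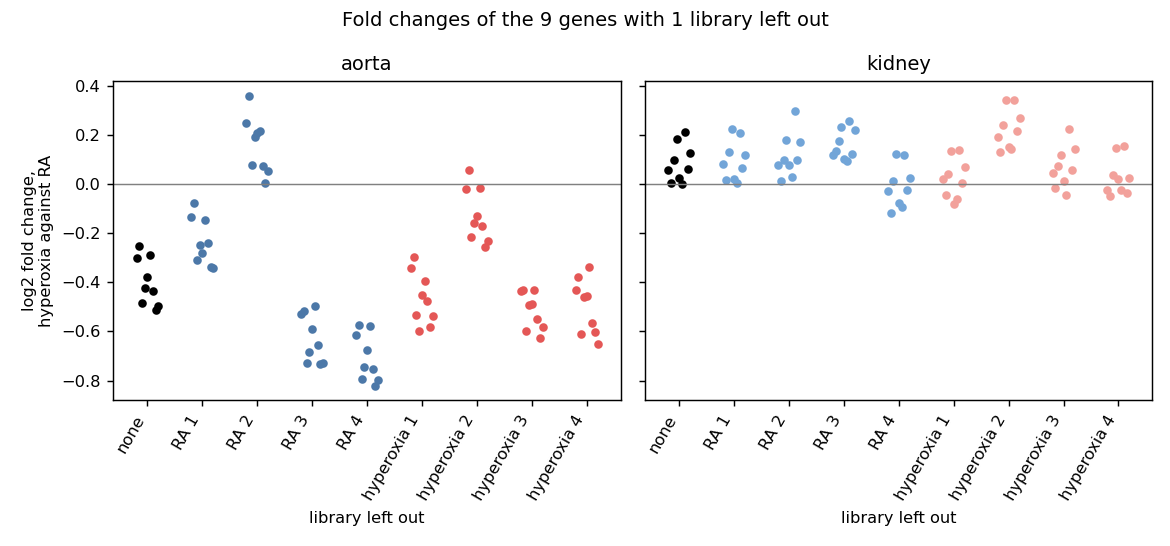
edgeR log2 fold changes of hyperoxia against RA for the 9 genes (points) with all libraries and with each library left out in turn, for aorta (left) and kidney (right). In the aorta all 9 genes pass to the positive side without RA replicate 2, and the kidney values stay within 0.35 of 0.

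A test of the interaction over all 16 libraries asked whether the exposure effect differed between the tissues. The count of genes called was 0 of 9 in edgeR, beside 0% of 16025 rows, and 0 of 9 in DESeq2, beside 0.393% of 20612 rows. Before adjustment, 0 of the 9 genes and 1277 of all rows passed 0.05 in edgeR. The estimates, aorta effect minus kidney effect on the log2 scale, were negative for all 9 genes, from −0.20 for Nd2 to −0.59 for Co2 (standard error 0.71, 95% interval −2.11 to 0.93). Without RA aorta replicate 2, 6 of the 9 were positive, and without hyperoxia aorta replicate 2, 2 were.

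Aorta and kidney were compared within each exposure in the same fit. Tissue cannot be told apart from library preparation or sequencing run in these comparisons. The tissues were deposited in separate tables and differed in depth, and with libraries thinned to the smallest total edgeR also called 0 of the 9 genes in either exposure. In RA edgeR called 0 of the 9 genes, beside 70.2% of 16025 rows, and DESeq2 called 0, beside 58.2% of 20612 rows. Before adjustment 0 of the 9 passed 0.05 in edgeR. The log2 differences, aorta minus kidney, ran from −0.40 for Co1 (standard error 0.53, 95% interval −1.52 to 0.72) to 0.38 for Nd2 (standard error 0.57, 95% interval −0.83 to 1.59). The 4 complex I genes were on the positive side and the other 5 on the negative side. With library totals, Nd1 and Nd4 were also negative, at −0.24 and −0.12, where the median over all rows shifted to −0.18. Without RA aorta replicate 2 all 9 genes were negative, with a median of −0.61, and without RA aorta replicate 4 the median was 0.25.

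In hyperoxia edgeR called 0 of the 9 genes, beside 71.7% of rows, and 0 of the 9 passed 0.05 before adjustment. Co2 was at −0.85 (standard error 0.51, 95% interval −1.93 to 0.23, FDR 0.146 from edgeR), Co3 at −0.82 (FDR 0.164), Atp6 at −0.69 (FDR 0.237) and Co1 at −0.63 (FDR 0.297). Nd2 was at 0.18 and the other complex I genes between −0.35 and −0.23. DESeq2 called Co2 and Co3 lower in the aorta, with FDR values of 0.0773 and 0.0829, beside 59.2% of 20612 rows called and 32.2% called lower. Neither would be called with the limit on the unadjusted p-value, which was 0.0527 and 0.0569 in DESeq2. With library totals, edgeR called Co2, Co3 and Atp6 lower, beside 69.6% of rows called and 40.0% called lower, and 2 of the 3 genes would pass that limit. With RA aorta replicate 4 left out it called Co2 and Co3, beside 72.4% of rows called and 36.9% called lower, and 0 of them would pass it. These shares of the 9 genes lie below the background. Without hyperoxia aorta replicate 2 the median of the 9 genes moved from −0.39 to −0.14. In CPM the tissues did not overlap in hyperoxia for Cytb, Co1, Co2, Co3 and Atp6, with the aorta lower for these 5 of 9 genes, beside 35.6% of all rows lower and 60.2% in either direction. No gene was without overlap between the tissues in RA, beside 59.7% of all rows.

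**Figure D4:**
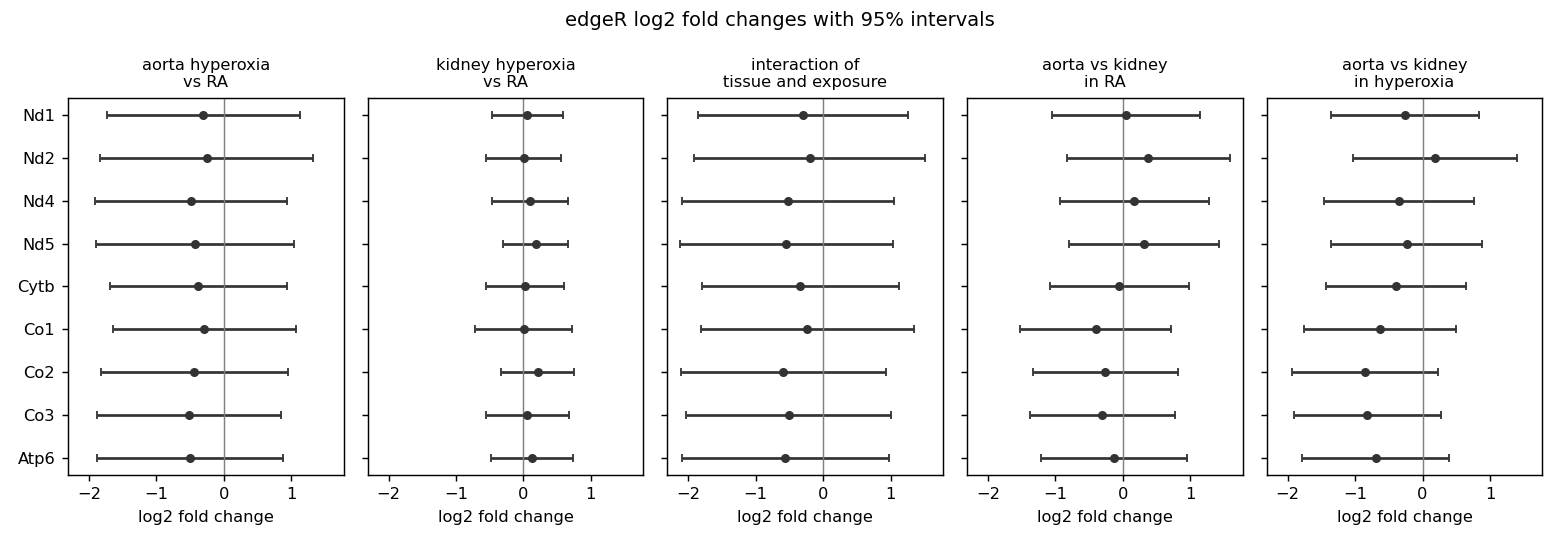
edgeR log2 fold changes (points) with 95% intervals (bars) for the 9 genes in the exposure, interaction and tissue comparisons. Each interval crosses 0, and those for the kidney exposure comparison are the narrowest.

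The level of the 9 genes varied far more between aortas than between kidneys. On the log2 CPM scale after TMM scaling, the within-group SD of the 9 genes was 1.13 to 1.43 in RA aortas, where the median over 16025 rows was 0.36 and 5.47% of rows had a higher SD than the median of the 9. In hyperoxia aortas it was 0.71 to 1.06, beside a median of 0.26 over all rows. RA kidneys had an SD of 0.17 to 0.34 and hyperoxia kidneys of 0.26 to 0.36, beside medians of 0.16 and 0.26 over all rows. The 491 other rows among the 500 most abundant had median SDs of 0.29 in RA aortas and 0.21 in hyperoxia aortas.

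Ratios among the 9 genes were much steadier than their levels. Each gene was divided by the summed counts of the 9 genes in its library, a measure that removes the summed level. In RA aortas the SD of this log2 ratio had a median of 0.10 over the 9 genes, beside 1.11 for log2 CPM without further scaling. In hyperoxia aortas the medians were 0.09 and 0.69, in RA kidneys 0.05 and 0.20, and in hyperoxia kidneys 0.06 and 0.19. In RA aortas Atp6 was the steadiest, at 10.97 ± 0.138% of the summed counts, whereas Nd2 was at 7.97 ± 1.07% and Co1 at 29.99 ± 2.30% (SD, n = 4 each). In hyperoxia aortas Atp6 was at 10.19 ± 0.761% (SD, n = 4). Dividing the genes by their own sum ties the ratios to each other, so they are not independent.

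The makeup of the summed counts differed between the tissues in the same direction for the complex I genes. Here too, tissue cannot be told apart from library preparation or sequencing run. Nd1 made up 7.39% to 8.97% in the 8 aortas and 6.69% to 7.37% in the 8 kidneys. Nd2 made up 8.78%, 8.96%, 6.81% and 7.32% in RA aortas and 8.81%, 6.93%, 10.03% and 9.75% in hyperoxia aortas. In the kidneys, Nd2 stayed between 5.45% and 6.42%, below all 8 aortas. Nd4 made up 10.2% to 11.8% in the aortas and 8.67% to 9.75% in the kidneys. Nd5 was at 2.97% to 4.14% and 2.46% to 3.16%, so that its tissues did not overlap within either exposure but did over all 16 libraries.

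Complex IV genes took the opposite side. Co3 made up 10.2% to 11.8% of the summed counts in the aortas and 12.1% to 13.8% in the kidneys, without overlap. Co1 made up 27.9% to 32.6% in the aortas and 31.5% to 35.0% in the kidneys, and Co2 5.66% to 6.83% and 6.57% to 8.13%. Co1 was without overlap between the tissues in RA only, and Co2 in hyperoxia only. Cytb, at 9.81% to 12.3% and 8.92% to 10.5%, and Atp6, at 9.53% to 11.1% and 10.6% to 12.4%, overlapped between the tissues.

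Summed by complex, the 4 complex I genes made up 30.9 ± 2.01% of the counts of the 9 genes in the aortas and 25.04 ± 0.693% in the kidneys (SD, n = 8 each). Their ranges, 28.0% to 33.2% and 23.7% to 25.9%, did not overlap. The 3 complex IV genes made up 47.5 ± 1.61% in the aortas and 53.9 ± 0.589% in the kidneys (SD, n = 8 each), with ranges of 45.3% to 49.8% and 53.2% to 54.8%. Exposure did not separate these shares: complex I genes were at 30.4 ± 2.43% in RA and 31.5 ± 1.66% in hyperoxia aortas, and at 24.9 ± 0.924% and 25.2 ± 0.474% in the kidneys (SD, n = 4 each).

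Over all 16 libraries 4 of the 9 genes were without overlap between the tissues, Nd1, Nd2 and Nd4 with the higher share in the aorta and Co3 with the lower, beside 25.3% of all 16025 rows measured against the same sum. Within RA there were 6 of 9, beside 32.5% of rows, and within hyperoxia 6 of 9, beside 44.9%. Between RA and hyperoxia there were 0 of 9 in the aorta and 0 of 9 in the kidney, beside 0.262% and 0.612% of rows. Dividing by the sum removes the summed level from the 9 genes but adds its variation to the other rows. The backgrounds are therefore not like for like with the 9 genes. In CPM, 59.7% of rows were without overlap between the tissues in RA, beside 32.5% against the sum. These shares are a description and were not tested. Reads shared with copies of mitochondrial sequence in the nuclear genome were not tested for a part in any of them.

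**Figure D5:**
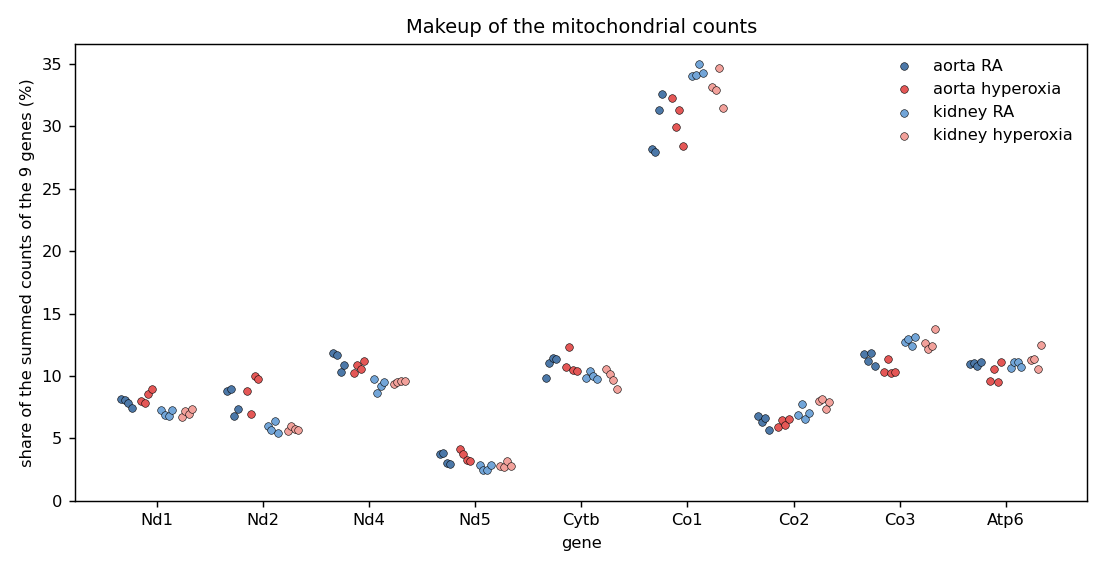
Share of the summed counts of the 9 genes (%) held by each gene, with a point for each library coloured by tissue and exposure. Aorta points lie above kidney points for Nd1, Nd2 and Nd4 and below them for Co3, while RA and hyperoxia overlap within each tissue.

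Among the 16016 other rows, those most like the 9 genes were ENSRNOG00000033299 and ENSRNOG00000031053. Likeness was the Pearson correlation with the mean log2 CPM of the 9 genes over the 16 libraries, after each row was centred on its group mean. It was 0.990 and 0.988, where the median over all rows was −0.0455, and 20 rows were above 0.9. The rows next in order were at 0.984 and 0.980, and the one after them at 0.949. For ENSRNOG00000033299 and ENSRNOG00000031053 it was 0.996 and 0.997 within the aortas and 0.935 and 0.923 within the kidneys. Over the 10 rows most like the 9 genes, the value within the kidneys ran from −0.476 to 0.935. All rows of a library share its depth and scaling, and the value is a description. ENSRNOG00000033299 ranged from 936 to 5309 CPM in RA aortas and from 2002 to 2876 CPM in RA kidneys, a wide and a narrow range like those of the 9 genes. These rows were not given names. Whether they also lie on the mitochondrial genome, or share reads with the 9 genes, was not checked.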

How the data were processed

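The deposited values are estimated counts (expected counts), which the authors made with kallisto on build rn6.0 and collapsed from transcripts to Ensembl genes with tximport, without normalization. Versions, annotation release and strand setting are not given in the sources used here. Each library had non-whole entries (24.3% to 28.8%), which were rounded. No libraries were identical.

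Rounded counts of all rows were fitted with edgeR 4.0.16 in R 4.3.3 (filter on expression by group, TMM, quasi-likelihood test, Benjamini-Hochberg adjustment), within each tissue for exposure and over 16 libraries for tissue and interaction. Standard errors were derived from the F statistics. DESeq2 1.42.0, RLE, library totals with and without the 9 genes, no filter, thinning to the smallest total and leaving out each library were alternatives. The fits were tested on simulated data. P-values judge a difference between groups against the spread between these libraries.

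The 9 genes and the lists were chosen with earlier results of these data known, and all 9 were named whatever their values, beside the 2 rows most like them. Values were found for 0 of 132 symbols from 14 lists of pathways and markers, since 0 identifiers occur in the gene table used (GRCr8), so these lists were not analysed here, nor were levels per length.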

Additional observations from a re-analysis of the deposited data

Results flagged for a closer look

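Libraries standing apart within a group of 4 were looked for in 80 groups, covering library totals, the summed share, each gene's share of library counts and each gene's share of the summed counts. A library stood apart in 7 of them, where chance gives about 4.

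Hyperoxia aorta replicate 2 accounted for 5 of the 7. Its summed share of 8.14% lay below the 20.4% to 22.7% of the other hyperoxia aortas, and so did its shares of Co1 (2.44%), Cytb (1.00%) and Co3 (0.926%), while Co3 made up the most of its summed counts, at 11.4%. These 5 values come from the same library and are not independent. RA kidney replicate 4 was the lowest of its group for Nd1, at 1.73%. Hyperoxia kidney replicate 2 was the lowest of its group for Nd5, at 0.673%.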

How the results depend on the processing

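The count of genes called stayed at 0 of 9 in the exposure comparisons, the interaction and the tissue comparison in RA, under each alternative run. In hyperoxia, between aorta and kidney, DESeq2 called 2 (beside 59.2% of all rows), library totals 3 (69.6%), library totals without the 9 genes 3 (72.2%), and leaving out each library in turn between 0 and 2 (2 without RA aorta replicate 4, beside 72.4%). With the study's limit of 0.05 on the unadjusted p-value as well, a rule added after seeing the data, these counts were 0, 2, 2 and 0, and the count in edgeR with all libraries stayed at 0 in each comparison. The summed shares moved by less than the spread between animals. Levels per coding length were not run, for want of lengths. No paired analysis was possible for RA against hyperoxia because these groups share no library numbers. Between the tissues, 3 hyperoxia libraries share numbers, and their deviations correlated at 0.0669, 0.00299 and 0.0325. With the number as a replicate block over these 6 libraries, 0 genes were called and Nd2 was at −0.0536, against 0 called and 0.18 without it, a fit added after seeing the data.

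Some log2 fold changes changed direction, none of them called. In the aorta exposure comparison these included the largest of the 9, Co3 at −0.51. In the kidney exposure comparison, Nd2, Cytb and Co1 were at −0.0385, −0.0222 and −0.0462 with library totals and at −0.0374, −0.0193 and −0.0424 with totals without the 9 genes. Between tissues in RA, Nd1 and Nd4 were at −0.24 and −0.12 with library totals and at −0.22 and −0.0948 without the 9 genes, and Nd2 in hyperoxia at −0.17, where the median of all rows moved to −0.32 and −0.37. Leaving out a library gave these ranges for the genes that changed sign.
For hyperoxia against RA in the aorta they were −0.61 to 0.25 for Nd1, −0.57 to 0.36 for Nd2, −0.79 to 0.079 for Nd4, −0.75 to 0.19 for Nd5, −0.67 to 0.21 for Cytb, −0.58 to 0.22 for Co1, −0.75 to 0.071 for Co2, −0.82 to 0.0045 for Co3 and −0.80 to 0.053 for Atp6. In the kidney they were −0.027 to 0.19 for Nd1, −0.12 to 0.13 for Nd2, −0.084 to 0.15 for Cytb, −0.093 to 0.14 for Co1 and −0.038 to 0.22 for Co3. For aorta against kidney in RA they were −0.49 to 0.35 for Nd1, −0.22 to 0.70 for Nd2, −0.38 to 0.48 for Nd4, −0.28 to 0.64 for Nd5, −0.61 to 0.25 for Cytb, −0.75 to 0.055 for Co2, −0.80 to 0.0054 for Co3 and −0.66 to 0.17 for Atp6. In hyperoxia they were −0.40 to 0.027 for Nd1 and −0.41 to 0.031 for Nd5. For the interaction they were −0.61 to 0.22 for Nd1, −0.51 to 0.39 for Nd2, −0.83 to 0.014 for Nd4, −0.87 to 0.0399 for Nd5, −0.64 to 0.21 for Cytb and −0.52 to 0.24 for Co1. Why these signs moved is unknown (the cause was not tested). The aorta changes of sign in the exposure comparison came from leaving out RA replicate 2, except for Nd2, which also changed without hyperoxia replicate 2.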

Other observations

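The labels give the same library number to an aorta and a kidney in 3 cases, all in hyperoxia, without saying whether the animal was the same. Aorta replicate 2 and kidney replicate 1 share a number, with 8.14% and 31.8% of counts in the 9 genes. Aorta replicate 3 and kidney replicate 2 were at 22.03% and 24.7%, and aorta replicate 4 and kidney replicate 3 at 22.7% and 28.4%. The aorta with the lowest summed share of its group thus carried the number of the kidney with the highest share of the 3.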
